A study of Mus musculus with 14 samples.

Results

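Hepatic transcripts of Cdkn1a, of 6 other genes known as targets of p53 (Mdm2, Ccng1, Trp53inp1, Phlda3, Gdf15 and Btg2) and of the 3 Gadd45 genes (Gadd45a, Gadd45b and Gadd45g) were followed through concanavalin A hepatitis. These 10 genes were chosen by symbol, with earlier results of these data known, from the 17656 genes listed in each library, and each was found once. Livers came from 14 male mice aged 8 weeks, each sequenced as 1 library of total RNA, in 4 groups: WT mice injected with saline (n = 3), Ythdf1-/- mice injected with saline (n = 3), WT mice given ConA at 8 mg/kg into the tail vein (n = 4) and Ythdf1-/- mice given the same dose (n = 4), all taken 8 h after injection. ConA is a plant lectin that activates T cells and provokes hepatitis in mice, and YTHDF1 is a reader protein of the m6A mark on mRNA. The knockout was made with CRISPR/Cas9 in the germline, so that every cell type of the liver and its infiltrate carried it, and the comparisons ask how these genes responded to ConA and whether that response depended on the genotype.

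The p53 protein is a transcription factor that is held at a low level by MDM2 and is stabilised by DNA damage and other stresses. Its targets include a brake on cell division (Cdkn1a, which encodes the cyclin-dependent kinase inhibitor p21), its own inhibitors, and genes of apoptosis and metabolism. The GADD45 proteins are small partners of MAP kinase kinase kinases and cell cycle proteins, and they are induced by growth arrest, cytokines and DNA damage. Several of these genes, Cdkn1a, Btg2, Gdf15 and the Gadd45 genes among them, are also known to be induced without p53.

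Values are TPM (transcripts out of 1000000 in the library, a level already divided by transcript length, so that levels of different genes may be set side by side). On the log2(TPM + 1) scale, limma was used to test differences, and a call needs an adjusted p below 0.05 over all genes tested. In each library 2230 to 2701 genes were listed at 0. Read depth was unknown. WT saline mice 2 and 3 were unusually alike, with a median absolute log2 ratio of 0.07 over 5160 genes against 0.12 to 0.40 in the 17 other pairs of mice of the same group. ConA mice numbered 3 had low values for transcripts of low GC content, and the median deviation from the group was -0.64 on the log2 scale in the lowest quintile of GC content for WT and -0.41 for Ythdf1-/-. Ythdf1 itself was at 12.03 to 13.9 TPM in WT saline, 18.4 to 20.8 TPM in the saline libraries labelled Ythdf1-/-, 15.5 to 26.2 TPM in the ConA libraries with that label and 18.7 to 25.6 TPM in those of WT ConA mice. The saline difference was 0.53 ± 0.09 (SE, adjusted p = 0.0181) with the Ythdf1-/- label higher (0.55, adjusted p = 0.0825, with WT saline mice 2 and 3 averaged), and the ConA difference was 0.02 ± 0.18 (SE, adjusted p = 0.964). The level of its transcript was thus not lower under the knockout label, and where the edit lies in the transcript was not given in the sources used here, so the genotype is named by label and every genotype comparison rests on it. Hepatocyte markers had the highest sum of the marker lists in all libraries, at 104415 to 131085 TPM after saline and 53929 to 83101 TPM after ConA over 8 genes. Most of it was Alb, Apoa1 and Ttr. Tat (means of 1008 TPM to 1724 TPM in WT, 1186 TPM to 1747 TPM in Ythdf1-/-) and Hnf4a (159 TPM to 187 TPM, 151 TPM to 191 TPM) were higher after ConA. Of the 8 genes, 5 were called lower and 1 higher in WT mice, and 6 lower and 1 higher in Ythdf1-/- mice. Neutrophil markers went from 5.27 to 10.9 TPM after saline to 298 to 908 TPM after ConA over 6 genes, a sum made up almost wholly of S100a8 and S100a9. Csf3r and Cxcr2 were also higher after ConA in both genotypes, while Ly6g had a lower mean (3.49 TPM to 0.80 TPM in WT, 1.86 TPM to 1.51 TPM in Ythdf1-/-) and Mpo was at 0.26 TPM or below in all libraries. Kupffer cell markers went from 25.3 to 105 TPM to 4.74 to 28.4 TPM over 6 genes, and most of the sum after saline was Clec4f and Cd5l. Of the 6 genes, 5 were called lower in WT mice and 3 in Ythdf1-/- mice. Marco had a higher mean after ConA in Ythdf1-/- mice (1.45 TPM to 2.75 TPM) and 4.1 TPM to 3.4 TPM in WT. T cell markers stayed at 0.79 to 4.29 TPM in all libraries. In whole liver, a change in the cells present and a change in RNA per cell cannot be told apart, and the part of these shifts in the results below was not tested.

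To show what lies next to the start sites of these genes, the 250 bases before each RefSeq start were searched on both strands for 6 motifs. Promoter sequence was held for 9 of the 10 members, all but Trp53inp1. The p53 half-site, a decamer searched as its degenerate consensus RRRCWWGYYY, was matched in 4 of the 9 members (Cdkn1a, Mdm2, Ccng1 and Gadd45a) and in 7.13% of all 32851 windows of this length. A half-site is part of a p53 site and not the whole. Cdkn1a held 2 matches, beginning 73 and 51 bases before the first of its 2 RefSeq starts, and none before the second. Gdf15 also had 2 starts, with no match to any of the 6 motifs before either. A member counted as matched if any of its windows held a match, while the share of all windows is per window. The cyclic AMP response element TGACGTCA was matched in Btg2 alone, 166 bases before the start, and in 1.55% of all windows. The TATA box TATAAA was matched in Gadd45b and Gadd45g, 46 and 27 bases before their starts, and in 12.4% of all windows. For Btg2, Gadd45g and Phlda3 the bases just after the RefSeq start were not found in a transcript of the gene in a second annotation, GENCODE. Distances for these genes thus hold for the RefSeq start alone. None of the 9 members held the AP-1 site TGANTCA (6.75% of all windows), the STAT site TTCNNNGAA (7.02%) or the NF-kB decamer (7.25%) in this window. No 2 matches overlapped, and a match is a stretch of letters and not a shown binding site. The 7 promoters with a match are given below from the GRCm38.p6 sequence of RefSeq, 5′ to 3′ on the strand of the gene and ending next to its start, with the matches in capitals. They are 200 bases long except for Ccng1, where bases inside an annotated transcript were left off.
Cdkn1a, chr17:29090779-29090978, plus strand: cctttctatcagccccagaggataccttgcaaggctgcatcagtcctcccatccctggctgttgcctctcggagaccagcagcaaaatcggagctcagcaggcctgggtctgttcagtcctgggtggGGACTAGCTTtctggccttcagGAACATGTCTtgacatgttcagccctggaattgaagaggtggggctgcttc
Mdm2, chr10:117710759-117710958, minus strand: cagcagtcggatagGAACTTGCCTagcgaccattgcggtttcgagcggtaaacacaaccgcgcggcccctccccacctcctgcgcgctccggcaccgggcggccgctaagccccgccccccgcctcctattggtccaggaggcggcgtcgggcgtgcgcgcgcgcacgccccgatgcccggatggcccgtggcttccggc
Ccng1, chr11:40755310-40755486, minus strand: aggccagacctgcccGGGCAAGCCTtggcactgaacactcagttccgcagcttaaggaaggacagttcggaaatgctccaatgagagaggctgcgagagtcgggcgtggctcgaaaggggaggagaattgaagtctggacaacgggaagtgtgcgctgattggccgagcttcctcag
Gadd45a, chr6:67037408-67037607, minus strand: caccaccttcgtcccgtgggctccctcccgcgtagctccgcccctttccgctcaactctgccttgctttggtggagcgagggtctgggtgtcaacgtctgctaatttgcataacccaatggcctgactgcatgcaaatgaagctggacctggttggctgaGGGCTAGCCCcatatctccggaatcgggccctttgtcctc
Btg2, chr1:134079156-134079355, minus strand: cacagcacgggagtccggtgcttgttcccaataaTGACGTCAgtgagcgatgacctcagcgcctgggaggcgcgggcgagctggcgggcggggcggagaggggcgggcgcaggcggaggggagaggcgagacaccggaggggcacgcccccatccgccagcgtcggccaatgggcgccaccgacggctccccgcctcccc
Gadd45b, chr10:80929891-80930090, plus strand: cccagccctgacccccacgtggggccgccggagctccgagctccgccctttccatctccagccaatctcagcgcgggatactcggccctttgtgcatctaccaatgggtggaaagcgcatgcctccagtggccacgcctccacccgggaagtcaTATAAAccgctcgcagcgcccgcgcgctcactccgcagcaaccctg
Gadd45g, chr13:51846475-51846674, plus strand: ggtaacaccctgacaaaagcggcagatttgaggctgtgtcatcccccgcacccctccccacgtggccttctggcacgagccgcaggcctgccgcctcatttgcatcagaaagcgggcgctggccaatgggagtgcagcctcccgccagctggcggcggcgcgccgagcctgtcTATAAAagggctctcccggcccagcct

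Cdkn1a was the member with the largest rise after ConA. Its level in WT saline mice was 0.69, 0.90 and 1.55 TPM, and in WT ConA mice 212, 143, 168 and 152 TPM. Every ConA mouse lay far above every saline mouse. The means were 1.05 ± 0.45 TPM (SD, n = 3) and 169 ± 30.6 TPM (SD, n = 4), a ratio of 161, and the difference of 6.38 ± 0.19 (SE) on the log2(TPM + 1) scale ranked 12 among 10768 genes tested (adjusted p = 7.39e-08). In mice labelled Ythdf1-/- the level was 1.82, 1.77 and 2.02 TPM after saline and 227, 233, 345 and 290 TPM after ConA. There the difference was 6.56 ± 0.16 (SE), rank 18 among 10988 genes (adjusted p = 3.79e-10). All 10 members rose after ConA in WT mice, where 22.0% of all genes tested were called higher, and all 10 rose in Ythdf1-/- mice, where 33.9% of all genes were called higher. The median difference over the members was 2.51 in WT mice, against -0.07 over all genes tested, and 2.70 in Ythdf1-/- mice, against 0.07 over all genes.

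**Figure D1:**
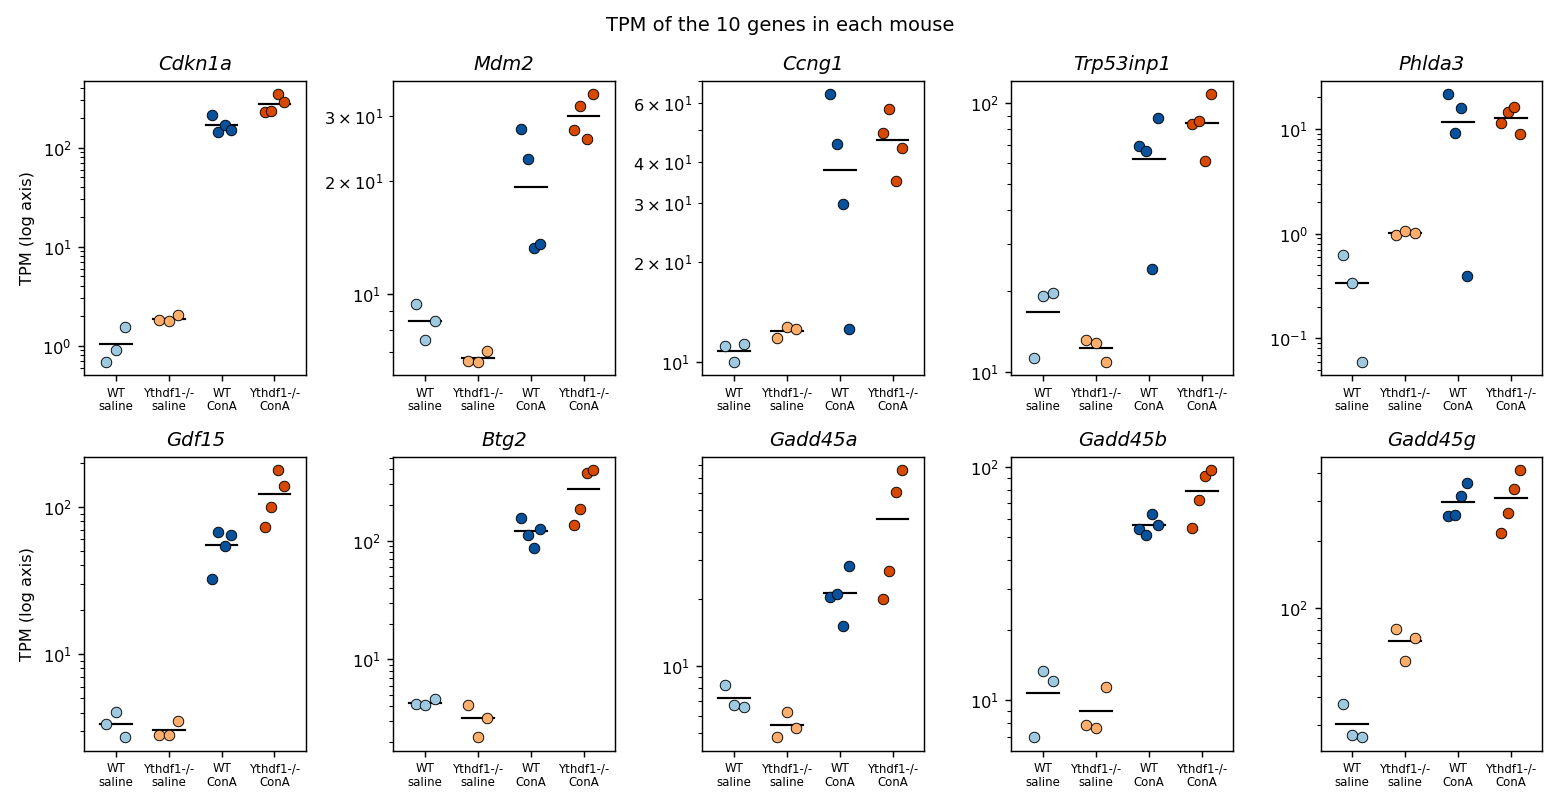
TPM (log axis) of each of the 10 genes in each of the 14 mice, by group, with 1 point per mouse and a bar at the group mean. ConA mice sit above the saline mice of their genotype in every panel except for WT ConA mouse 4 in Phlda3, at 0.39 TPM, and the panels differ in their axis ranges.

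Btg2, which encodes an antiproliferative partner of the CCR4-NOT deadenylase, came next to Cdkn1a. It was at 4.17, 4.11 and 4.61 TPM in WT saline mice and at 154, 112, 86.9 and 125 TPM in WT ConA mice, with no overlap. The difference was 4.48 ± 0.19 (SE, adjusted p = 3.71e-07) and the ratio of means 27.8. In Ythdf1-/- mice it went from 4.15, 2.20 and 3.20 TPM to 137, 185, 370 and 394 TPM. Mice 3 and 4 of that group stood well above mice 1 and 2, and the difference was 5.91 ± 0.34 (SE, adjusted p = 1.58e-07) with a ratio of means of 85.2.

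Gdf15, a secreted cytokine of the TGF-beta superfamily that acts on appetite through the brainstem, behaved in the same way. Its level was 3.35, 4.02 and 2.72 TPM in WT saline mice and 32.2, 67.4, 54.4 and 64.8 TPM in WT ConA mice. The rise of 3.63 ± 0.25 (SE, adjusted p = 5.15e-06) was seen in 4 of 4 mice. Ythdf1-/- mice had 2.83, 2.83 and 3.51 TPM after saline and 72.9, 99.2, 178 and 139 TPM after ConA, a rise of 4.85 ± 0.25 (SE, adjusted p = 8.81e-08).

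The feedback inhibitors of p53 rose less. Mdm2, the ubiquitin ligase that targets p53 for degradation, was at 9.37, 7.51 and 8.47 TPM in WT saline mice and at 27.6, 22.9, 13.3 and 13.6 TPM in WT ConA mice, so that mice 3 and 4 were lower than mice 1 and 2. The difference was 1.04 ± 0.25 (SE, adjusted p = 0.00711). In Ythdf1-/- mice Mdm2 went from 6.61, 6.58 and 7.02 TPM to 27.5, 31.8, 26.0 and 34.2 TPM with little spread, a difference of 1.99 ± 0.14 (SE, adjusted p = 5.86e-07). Ccng1, which encodes cyclin G1, a recruiter of protein phosphatase 2A to MDM2, was at 11.1, 10.02 and 11.3 TPM in WT saline mice. WT ConA mice had 63.9, 45.2, 29.8 and 12.6 TPM, and the last of these was next to the saline level. The difference of 1.5 ± 0.44 (SE, adjusted p = 0.0171) was called, but not without WT saline mouse 2 (1.45, adjusted p = 0.0528). In Ythdf1-/- mice Ccng1 went from 11.8, 12.7 and 12.6 TPM to 49.0, 57.9, 35.1 and 44.0 TPM, a difference of 1.81 ± 0.16 (SE, adjusted p = 3.90e-06).

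Trp53inp1 and Phlda3 complete the p53 targets. Trp53inp1 encodes a nuclear protein that promotes cell death and autophagy, and its level was 11.3, 19.2 and 19.7 TPM in WT saline mice and 69.4, 66.6, 24.3 and 88.3 TPM in WT ConA mice. WT ConA mouse 3 was the low one. The transcript has 38.8% GC, which is lower than in all but 6.8% of genes, and the part of GC content in the low value of that mouse was not tested. The difference was 1.73 ± 0.40 (SE, adjusted p = 0.00522), and it was 2.12 without that mouse (adjusted p = 0.000125). Ythdf1-/- mice went from 13.2, 12.9 and 11.0 TPM to 84.1, 85.9, 61.2 and 108 TPM, a difference of 2.66 ± 0.18 (SE, adjusted p = 4.16e-07), and there too mouse 3 was lowest. Phlda3, an inhibitor of AKT signalling at the membrane, was nearly silent in WT saline mice at 0.62, 0.34 and 0.06 TPM. WT ConA mice had 21.3, 9.16, 15.8 and 0.39 TPM, so that 3 mice were far above the saline range and mouse 4 within it. The difference of 2.69 ± 0.81 (SE, adjusted p = 0.0188) was 3.56 without mouse 4 (adjusted p = 4.59e-05), and it was not called without WT saline mouse 3 (2.53, adjusted p = 0.0611) or with WT saline mice 2 and 3 averaged (2.61, adjusted p = 0.0562). In Ythdf1-/- mice Phlda3 went from 0.97, 1.05 and 1.01 TPM to 11.3, 14.5, 16 and 8.94 TPM, without overlap, by 2.74 ± 0.20 (SE, adjusted p = 7.45e-07).

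**Figure D2:**
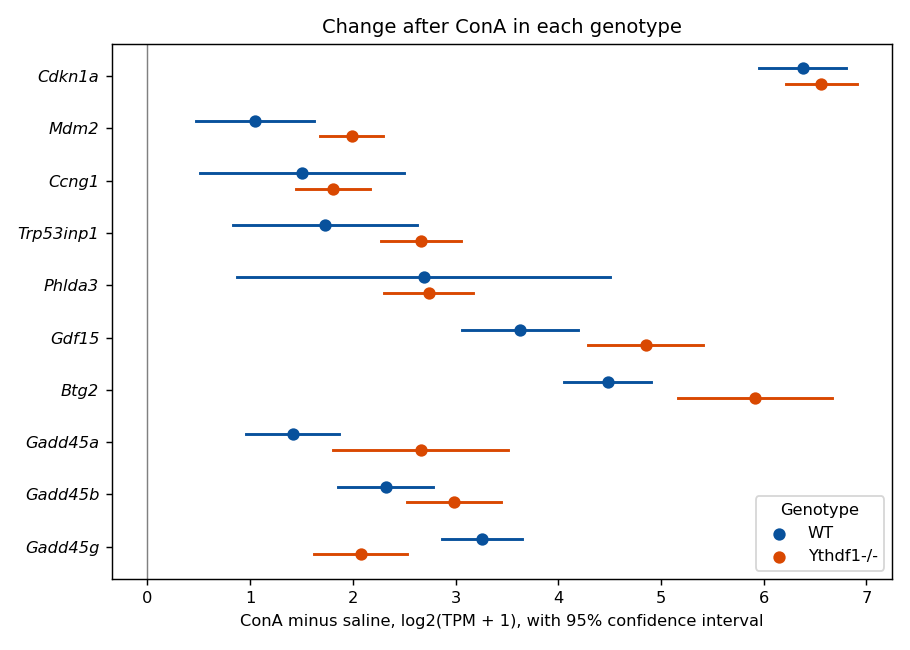
Difference between ConA and saline mice on the log2(TPM + 1) scale (x axis) for the 10 genes (y axis), as the limma estimate with its 95% confidence interval, for WT mice (blue) and mice labelled Ythdf1-/- (orange). All 20 intervals lie above 0, with estimates from 1.04 for Mdm2 in WT mice to 6.56 for Cdkn1a in Ythdf1-/- mice, and the widest is that of Phlda3 in WT mice.

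All 3 Gadd45 genes rose after ConA in both genotypes, from different starting levels. Gadd45g was the most abundant, at 37.2, 27.1 and 26.6 TPM in WT saline mice and 257, 259, 317 and 360 TPM in WT ConA mice, a difference of 3.26 ± 0.17 (SE, adjusted p = 1.16e-06). Its mean of 298 ± 49.4 TPM (SD, n = 4) was the highest of the 10 members after ConA in WT mice, ahead of Cdkn1a at 169 ± 30.6 TPM and Btg2 at 120 ± 28.0 TPM, and the TPM of all 4 mice lay above those of Cdkn1a. Gadd45b, the member of the family known as an immediate early gene of TGF-beta and NF-kB signalling, went from 6.95, 13.3 and 12.1 TPM to 54.3, 51.3, 62.8 and 56.2 TPM. The 4 ConA mice were close together, and the difference was 2.32 ± 0.20 (SE, adjusted p = 1.94e-05). Gadd45a, the family member known as a p53 target through a site in an intron, rose least, from 8.23, 6.73 and 6.57 TPM to 20.4, 21.1, 15.1 and 28.3 TPM (1.42 ± 0.20, SE, adjusted p = 0.000332).

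In mice labelled Ythdf1-/- Gadd45g had the smallest rise of the family instead of the largest. It went from 80.9, 58.2 and 73.9 TPM to 217, 266, 339 and 413 TPM, a difference of 2.08 ± 0.21 (SE, adjusted p = 7.71e-06). Gadd45b went from 7.83, 7.63 and 11.4 TPM to 54.9, 71.9, 91.1 and 97.0 TPM (2.99 ± 0.21, SE, adjusted p = 5.82e-07), and Gadd45a from 4.81, 6.23 and 5.31 TPM to 20.0, 26.7, 60.4 and 75.7 TPM (2.66 ± 0.39, SE, adjusted p = 0.000122). For Gadd45a, as for Btg2, mice 3 and 4 stood above mice 1 and 2. Of the summed TPM of the 3 genes, Gadd45g made up 62.4 ± 7.5% (SD, n = 3) in WT saline mice, 82.9 ± 3.11% (SD, n = 3) in Ythdf1-/- saline mice, 79.2 ± 1.65% (SD, n = 4) in WT ConA mice and 71.7 ± 2.37% (SD, n = 4) in Ythdf1-/- ConA mice. These shares did not overlap between the genotypes after saline or after ConA, and the genotype with the higher share differed between the treatments. The summed level was 48.3 ± 3.73 TPM, 85.4 ± 11.7 TPM, 376 ± 54.6 TPM and 433 ± 131 TPM in the same 4 groups. In the alike WT saline mice 2 and 3 the share was 57.5% and 58.7%, against 71.0% in mouse 1. Levels of single genes did not overlap for 13.0% (Ythdf1-/- higher) and 29.2% (lower) of all genes tested after saline, and for 6.37% (higher) after ConA. After ConA the level of Gadd45g itself differed by 0.02 between the genotypes (limma, adjusted p = 0.971), and no Gadd45 gene was called.

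**Figure D3:**
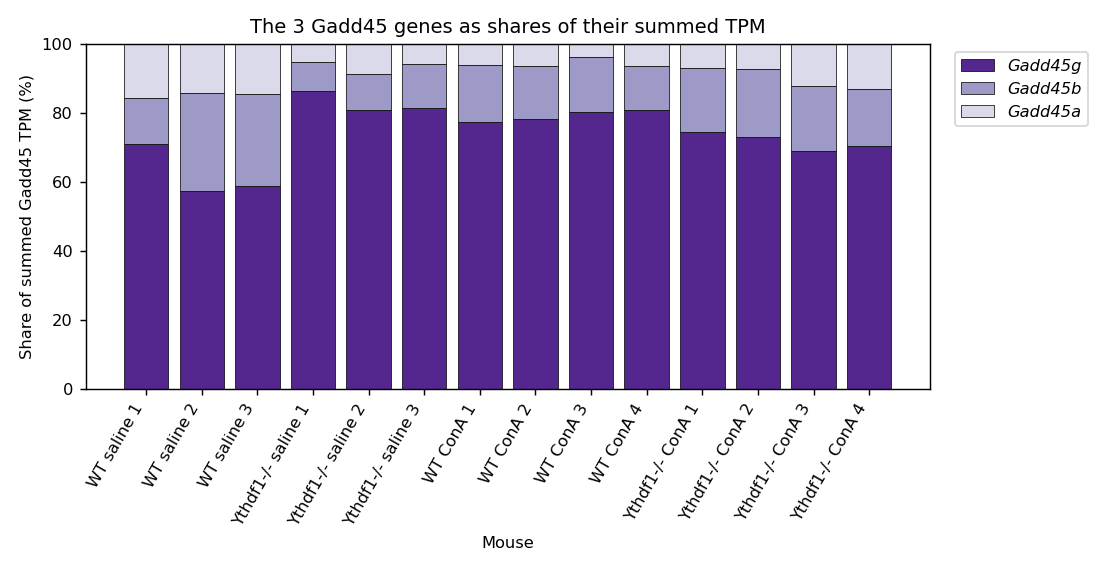
Share of each Gadd45 gene in the summed TPM of the 3 genes (y axis, %) in each of the 14 mice (x axis). The Gadd45g share runs from 57.5% to 71.0% in WT saline mice, 80.8% to 86.5% in Ythdf1-/- saline mice, 77.5% to 81.0% in WT ConA mice and 69.1% to 74.4% in Ythdf1-/- ConA mice.

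Before ConA, Gadd45g was the member that differed between genotypes. It was 2.34 times as high in the saline mice labelled Ythdf1-/- as in WT saline mice, and all Ythdf1-/- values (58.2 to 80.9 TPM) lay above all WT values (26.6 to 37.2 TPM). The difference was 1.21 ± 0.17 (SE, adjusted p = 0.0119). It was the only 1 of 9 members tested to be called, where 6.30% of all genes tested were called higher. The call rested on the WT saline mice: the difference was 1.13 with mice 2 and 3 averaged (adjusted p = 0.0741), 1.14 without mouse 2 (adjusted p = 0.0664) and 1.12 without mouse 3 (adjusted p = 0.0806), and 3 members were called without mouse 1, with Trp53inp1 (-0.62, adjusted p = 0.0177) and Phlda3 beside Gadd45g. Cdkn1a was at 1.77 to 2.02 TPM against 0.69 to 1.55 TPM, without overlap, and did not pass the test (0.51 ± 0.16, SE, adjusted p = 0.0613). Ccng1 was also higher without overlap (0.18 ± 0.08, SE, adjusted p = 0.155), so that 3 of the 9 members were apart and higher, against 13.0% of all genes tested. Mdm2 (-0.28 ± 0.10, SE, adjusted p = 0.0752) and Gadd45a (-0.34 ± 0.12, SE, adjusted p = 0.0808) were apart and lower, against 29.2% of all genes. Of the 9 members, 6 had a fitted value below 0 and 3 above it, where 36.1% of all genes tested had one above 0. Phlda3 was below the filter in this comparison. Trp53 itself, the gene of p53, was higher in Ythdf1-/- saline mice, at 18.8, 18.9 and 21.4 TPM against 12.5, 11.1 and 12.3 TPM (0.68 ± 0.09, SE, adjusted p = 0.0114), and this call too was lost with WT saline mice 2 and 3 averaged (adjusted p = 0.0701). Markers of other cell types also differed in these mice. The sums were higher in Ythdf1-/- mice without overlap for 5 cholangiocyte genes (83.7 to 89.4 TPM against 46.5 to 57.0 TPM) and 5 T cell genes (1.67 to 2.36 TPM against 0.79 to 1.25 TPM), and higher with overlap for 6 stellate cell genes (58.9 to 102 TPM against 15.8 to 64.8 TPM) and 6 endothelial genes (22.7 to 39.9 TPM against 13.8 to 22.9 TPM). The Kupffer cell sum was lower without overlap (25.3 to 56.1 TPM against 59.8 to 105 TPM). Spp1 made up most of the cholangiocyte sum (means of 73.8 TPM against 48.7 TPM) and Dcn most of the stellate cell sum (69.5 TPM against 26.8 TPM). The T cell genes all had means below 1 TPM, and none passed the filter to be tested here. Cd3g had the widest gap of them (means of 0.91 TPM against 0.30 TPM), while Cd8a was not higher (0.17 TPM against 0.19 TPM). In each of the cholangiocyte, stellate cell and endothelial lists 2 genes were called higher, and the part of these marker shifts in the result was not tested.

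After ConA, all 10 members had a higher mean in the mice labelled Ythdf1-/-, as had 57.5% of all genes tested, but no member passed the test. In this comparison 0.428% of all genes were called in either direction (45 of 10519). At an unadjusted p below 0.05, 6 of the 10 members were higher, beside 10.4% of all genes tested, and 1753 genes reached it in either direction. Gdf15 differed most, by 1.12 ± 0.29 (SE, 95% confidence interval 0.48 to 1.76, adjusted p = 0.0985), and the lowest Ythdf1-/- mouse at 72.9 TPM was above the highest WT mouse at 67.4 TPM. Cdkn1a differed by 0.69 ± 0.17 (SE, interval 0.31 to 1.07, adjusted p = 0.0861), and its groups were also apart, at 227 to 345 TPM against 143 to 212 TPM. Groups that did not overlap, with Ythdf1-/- higher, were thus seen for 2 of the 10 members and for 6.37% of all genes tested. Btg2 differed by 1.07 ± 0.32 (SE, interval 0.36 to 1.77, adjusted p = 0.137) with overlap, since mouse 1 of the Ythdf1-/- group was at 137 TPM and WT mouse 1 at 154 TPM.

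The other members differed less or varied more after ConA. Gadd45a differed by 0.91 ± 0.37 (SE, adjusted p = 0.257), Mdm2 by 0.66 ± 0.23 (SE, adjusted p = 0.190) and Gadd45b by 0.45 ± 0.18 (SE, adjusted p = 0.240). For Ccng1, Trp53inp1 and Phlda3 the intervals ran from below 0 to above 1, and without WT ConA mouse 4 the Phlda3 difference turned to -0.22. Gadd45g differed by 0.02 ± 0.20 (SE, interval -0.42 to 0.46, adjusted p = 0.971), with overlapping groups, and median-ratio scaling turned its sign (-0.06). A fit of all 14 mice, in which the saline mice share in the estimate of the spread, called 3 members higher, namely Gdf15 (adjusted p = 0.0212), Cdkn1a (adjusted p = 0.0256) and Btg2 (adjusted p = 0.0419), beside 3.95% of all genes. Among marker sums in these mice, the cholangiocyte sum was higher without overlap in the Ythdf1-/- group, at 36.8 to 56.4 TPM against 18.7 to 32.1 TPM. Most of it was Spp1 (means of 34.3 TPM against 17.5 TPM). Epcam was also apart and higher, while Krt19, Krt7 and Sox9 overlapped. Stellate cell markers (50.8 to 100.3 TPM against 21.6 to 62.3 TPM) and neutrophil markers (391 to 908 TPM against 298 to 534 TPM) were higher with overlap. Most of the stellate cell sum was Dcn (means of 79.6 TPM against 39.1 TPM). The neutrophil sum was again that of S100a8 and S100a9, while Csf3r had a lower mean (5.65 TPM against 6.44 TPM) and Cxcr2 a mean of 4.24 TPM against 4.01 TPM, both with overlap. No tested gene of the marker lists was called in this comparison, and the part of these markers in the differences was not tested.

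**Figure D4:**
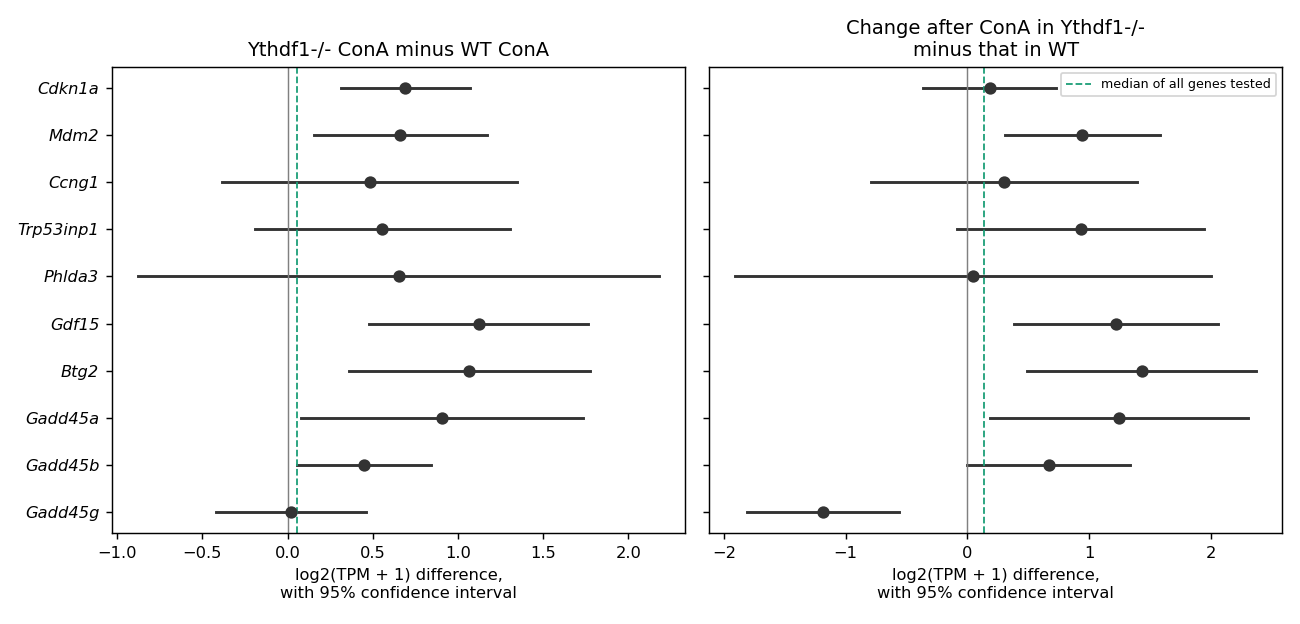
Difference between Ythdf1-/- and WT mice after ConA (left) and difference between the genotypes in the change after ConA (right) for the 10 genes, on the log2(TPM + 1) scale with 95% confidence intervals, with a dashed line at the median of all genes tested (0.05 and 0.14). All 10 points lie above 0 on the left, Gadd45g at 0.02, and on the right Gadd45g alone lies below 0, at -1.18.

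The change after ConA was then compared between the genotypes. It was smaller in Ythdf1-/- mice for Gadd45g, by -1.18 ± 0.29 (SE, interval -1.81 to -0.56, adjusted p = 0.0382), where 2.14% of all genes tested were called lower. This is the saline difference in Gadd45g seen from the other side, since its levels after ConA differed by 0.02 and both comparisons use the same saline mice. The call was lost with median-ratio scaling (-1.32, adjusted p = 0.0647), without a filter on low values (adjusted p = 0.0624), with WT saline mice 2 and 3 averaged (-1.11, adjusted p = 0.116), without WT saline mouse 2 or 3 (adjusted p = 0.112 and 0.118), without Ythdf1-/- saline mouse 1, 2 or 3 (adjusted p = 0.103, 0.0592 and 0.0582) and without Ythdf1-/- ConA mouse 1 or 2 (adjusted p = 0.0528 and 0.0680), with a direction that stayed the same in each. The other 9 members had a larger change in Ythdf1-/- mice by the fitted value, as had 62.2% of all genes, and none passed the test. The values were 1.43 ± 0.44 (SE, adjusted p = 0.0702) for Btg2, 1.25 ± 0.50 (SE, adjusted p = 0.137) for Gadd45a, 1.22 ± 0.39 (SE, adjusted p = 0.0794) for Gdf15 and 0.94 ± 0.30 (SE, adjusted p = 0.0763) for Mdm2. For Cdkn1a the change differed by 0.18 ± 0.25 (SE, interval -0.36 to 0.73, adjusted p = 0.674), and a smaller pseudocount turned its sign. Mdm2 was called without WT ConA mouse 1 (1.13, adjusted p = 0.0303), and Gdf15 (1.44, adjusted p = 0.0464) and Btg2 (1.71, adjusted p = 0.0381) without Ythdf1-/- ConA mouse 1. After a correction for GC content and transcript length, chosen after the data were seen, 5 members were called, namely Mdm2, Gdf15, Btg2 and Trp53inp1 with a larger change and Gadd45g with a smaller one.

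Within the WT ConA group, mouse 4 was low for some p53 targets and not for others. This mouse was singled out after its values were seen, and what follows is a description with no test. Trp53 was at 6.77 TPM in it, the lowest of all 14 mice, against 22.3 to 35.2 TPM in the other 3 WT ConA mice and 11.1 to 12.5 TPM in WT saline mice. Phlda3 stayed at 0.39 TPM and Ccng1 at 12.6 TPM, each the lowest of the 8 ConA mice, and Mdm2 at 13.6 TPM was next to the lowest. Cdkn1a (152 TPM), Btg2 (125 TPM), Gdf15 (64.8 TPM) and the 3 Gadd45 genes were in or above the range of the other WT ConA mice in the same liver, and Trp53inp1 at 88.3 TPM was above it.

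Some of the other p53 targets were also low in mouse 4, and others were not. Of the 28 of 29 listed genes tested, 14 rose and 7 fell in WT mice (median 0.54, against -0.07 over all genes), where 22.0% of all genes were called higher and 31.0% lower. Of 27 tested, 16 rose and 6 fell in Ythdf1-/- mice (median 0.98, against 0.07), where 33.9% were called higher and 30.7% lower. The list was chosen with earlier results of these data known, and the mouse after p53 target values were seen. The counts that follow are thus a description and no independent check. Of the 16 listed genes that rose in Ythdf1-/- mice, 8 were lowest in WT ConA mouse 4 among the 8 ConA mice, which was the case for 374 of all 3723 genes that rose in Ythdf1-/- mice. WT ConA mouse 3 was lowest for 5 of the 16 and for 2388 of the 3723 genes. The 8 genes lowest in mouse 4 were Aen (5.39 TPM against 13.1 to 18.8 TPM in the other WT ConA mice), Bax, Eda2r, Plk2, Polk, Psrc1, Tnfrsf10b and Zmat3. At or below the highest WT saline value in mouse 4 were 2 of the 16 genes and 1 of the 10 members, beside 10.7% of all 3723 genes. Over a log2 unit below the mean of the other 3 WT mice were 4 of the 16 genes and 1.29% of all 3723 genes. Of the 10 members 2 were that low, Phlda3 and Ccng1. Their values were seen before the mouse was singled out, so that count was fixed by the choice. Eda2r, a death receptor of the TNF receptor family, was at 0.07 TPM in mouse 4 and at 1.33 to 4.0 TPM in the other 3, and Bax, the pore former of mitochondrial apoptosis, was at 60.2 TPM against 108 to 141 TPM. In contrast, Ddit4, an mTORC1 inhibitor induced by hypoxia and glucocorticoids, was highest in mouse 4 at 206 TPM against 64.2 to 80.8 TPM, and Plk3 (160 TPM against 152 to 165 TPM) and Fas (82.4 TPM against 49.2 to 77.1 TPM) were not low.

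**Figure D5:**
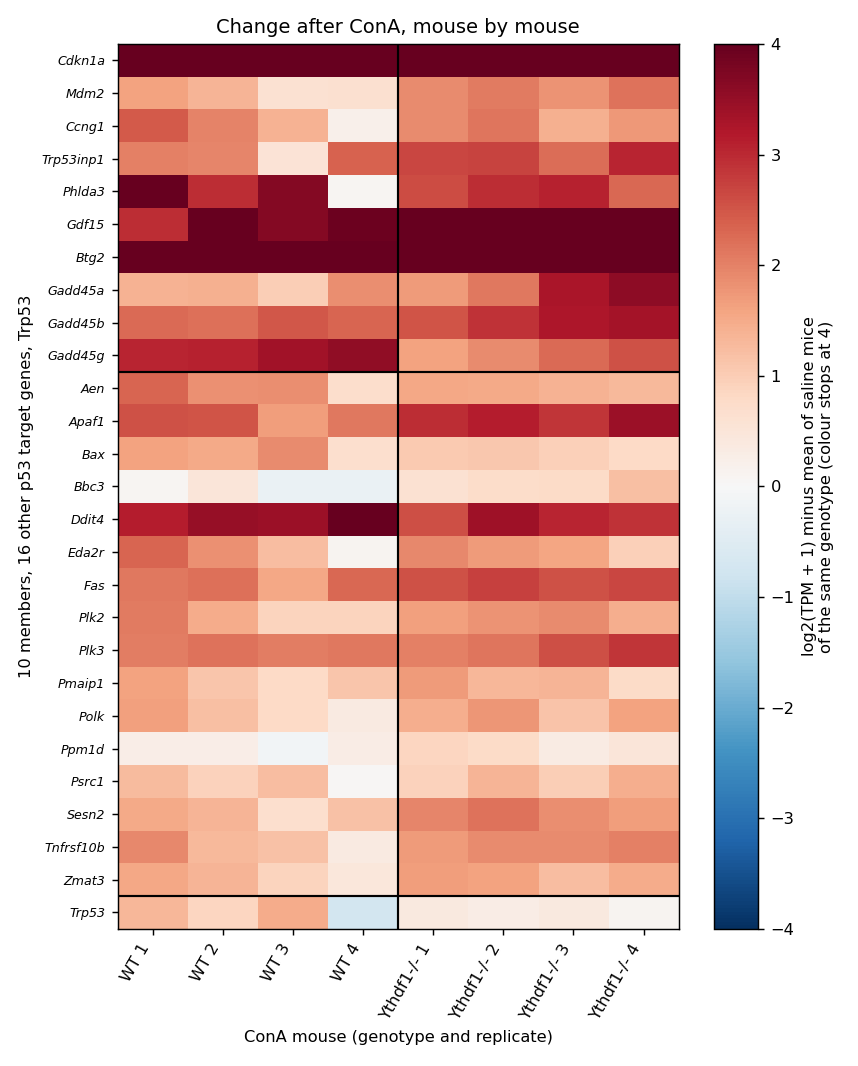
Change after ConA in each of the 8 ConA mice (columns) for the 10 members, the 16 other p53 targets that rose in Ythdf1-/- mice and Trp53 (rows), as log2(TPM + 1) minus the mean of the saline mice of the same genotype (colour, which stops at 4). The column of WT mouse 4 is pale for Phlda3 (0.07), Ccng1 (0.20), Eda2r (0.10) and Psrc1 (0.04), blue for Trp53 (-0.74) and dark for Cdkn1a (6.25) and Btg2 (4.57).

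Among the other p53 targets, Ddit4 (3.71 ± 0.35, SE, adjusted p = 2.73e-05), Apaf1 (2.21 ± 0.22, SE, adjusted p = 4.04e-05) and Plk3 (2.09 ± 0.16, SE, adjusted p = 1.07e-05) rose most in WT mice. Apaf1 encodes the scaffold of the apoptosome, and in Ythdf1-/- mice it was at 8.24 to 12.6 TPM after ConA against 2.91 to 6.12 TPM in WT mice, with adjusted p = 0.0741. Rps27l, a ribosomal protein homologue induced by p53, fell in both genotypes, by 0.34 ± 0.13 (SE, adjusted p = 0.0475) in WT and by 0.97 ± 0.12 (SE, adjusted p = 3.31e-05) in Ythdf1-/- mice, and these changes differed (-0.63 ± 0.16, SE, adjusted p = 0.0445). With WT saline mice 2 and 3 averaged, 12 of 28 targets rose and 4 fell in WT mice, and Rps27l was called neither there (adjusted p = 0.113) nor in the difference of changes (adjusted p = 0.125). Before ConA, 4 of 21 tested targets were higher in Ythdf1-/- mice and none was lower, where 6.30% of all genes tested were called higher and 1350 of 10459 lower. Ddit4 (0.88, adjusted p = 0.0292) and Rps27l (0.47, adjusted p = 0.0234) were among the 4, and with the averaged mice none was called. After ConA, 0 of 27 differed between the genotypes in the limma test, where 0.428% of all genes were called. Trp53 did not pass the test for a change after ConA in Ythdf1-/- mice (0.29 ± 0.13, SE, adjusted p = 0.0674) or in WT mice (0.73 ± 0.46, SE, adjusted p = 0.210). The WT value turned on 1 mouse, and without WT ConA mouse 4, left out after its values were seen, it was 1.22 ± 0.19 (SE, adjusted p = 0.000943).

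The partners of these proteins were next, and their counts are to be read against the same shares of all genes (22.0% higher and 31.0% lower in WT mice, 33.9% higher and 30.7% lower in Ythdf1-/- mice). Of 20 listed genes of p53 and its regulators, 2 of 15 tested rose and 1 fell in WT mice, and 5 of 14 rose and 1 fell in Ythdf1-/- mice. Hipk2, a kinase that activates p53, fell by 1.43 ± 0.19 (SE, adjusted p = 0.000213) in WT mice, while Ppp1r13l, which encodes the p53 inhibitor iASPP, rose by 0.70 ± 0.14 (SE, adjusted p = 0.00280) and Kat5, an acetyltransferase of p53, by 0.61 ± 0.13 (SE, adjusted p = 0.00310). Of 8 tested cyclins and kinases bound by p21, 1 rose and 2 fell in WT mice, namely Ccnd2 (0.77, adjusted p = 0.0143), Cdk6 (-0.70, adjusted p = 0.00432) and Ccnd3 (-0.43, adjusted p = 0.0463), of which Ccnd2 (adjusted p = 0.0508) and Ccnd3 (adjusted p = 0.130) were not called with WT saline mice 2 and 3 averaged. In Ythdf1-/- mice 3 of 8 rose and 1 fell. Of the MAP kinases and MAP kinase kinases tied to GADD45, 1 of 10 tested rose and 4 fell in WT mice, and 2 of 10 rose and 4 fell in Ythdf1-/- mice. Map2k6, an activator of p38, fell by 2.81 ± 0.18 (SE, adjusted p = 3.52e-06) in WT mice, from 10.5 to 12.01 TPM down to 0.50 to 1.38 TPM, and Map2k3 fell by 0.89 ± 0.13 (SE, adjusted p = 0.000423). Mapk13, which encodes p38 delta, rose by 0.94 ± 0.19 (SE, adjusted p = 0.00228) from at most 0.54 TPM.

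Of the family relatives of the members, 1 of 10 tested rose and 3 fell in WT mice, beside 22.0% and 31.0% of all genes, and the median over the list was 0.08 against -0.07 over all genes. With WT saline mice 2 and 3 averaged, 1 rose and 1 fell. Btg3, a relative of Btg2, rose by 3.78 ± 0.32 (SE, adjusted p = 1.52e-05), from 1.16 to 1.52 TPM to 19.2 to 47.3 TPM, while Tob1, an antiproliferative protein of the same family, fell by 1.61 ± 0.32 (SE, adjusted p = 0.00226). Cdkn1c, which encodes the p21 relative p57, fell by 0.67 ± 0.18 (SE, adjusted p = 0.0106, and 0.0548 with WT saline mice 2 and 3 averaged). In Ythdf1-/- mice 3 of 10 rose and 2 fell. Genes of the integrated stress response, several of which share inducers with Gadd45a and Gdf15, rose in 8 of 11 tested in WT mice, beside 22.0% of all genes, with a median of 1.66 against -0.07 over all genes. Of the same 11 genes, 10 rose in Ythdf1-/- mice, beside 33.9% of all genes, and 1 fell, with a median of 1.86 against 0.07. Atf3, a transcription factor of that response, went from 1.13 to 1.45 TPM to 24.1 to 47.9 TPM in WT mice (4.04 ± 0.23, SE, adjusted p = 1.80e-06) and from 0.73 to 1.17 TPM to 70.1 to 188 TPM in Ythdf1-/- mice (5.84 ± 0.30, SE, adjusted p = 8.03e-08). Its changes differed between the genotypes by 1.80 ± 0.42 (SE, adjusted p = 0.0342), and by 1.78 ± 0.47 (SE, adjusted p = 0.104) with WT saline mice 2 and 3 averaged. Ddit3, which encodes CHOP, rose by 2.58 ± 0.32 (SE, adjusted p = 0.000147) and Nupr1, a stress-induced chromatin protein, by 2.45 ± 0.22 (SE, adjusted p = 2.29e-05) in WT mice. No gene of the 6 lists was called between the genotypes after ConA, where 0.428% of all genes were called.

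Finally, the genes whose pattern over the 14 mice was closest to that of Cdkn1a were looked up among 11327 genes, by the root mean square difference of log2(TPM + 1) after each gene was centred on its own mean. They were Ccl2 (0.42), Socs1 (0.45), Cxcl10 (0.47), A2m (0.52) and Steap4 (0.53). Ccl2, a chemokine for monocytes, was at 0.11 to 0.69 TPM in the saline mice and at 78.5 to 266 TPM after ConA, and Socs1, an inhibitor of cytokine signalling, at 0.48 to 0.93 TPM and 65.5 to 150 TPM. Closest to Gadd45b were Eif6 (0.20), Pfkl (0.26), Ppp1r15a (0.27), Litaf (0.27) and Slc37a1 (0.29). Eif6, an initiation factor that holds ribosomal subunits apart, was at 18.9 to 36.0 TPM after saline, 128 to 162 TPM in WT ConA mice and 168 to 289 TPM in Ythdf1-/- ConA mice. Ppp1r15a, which is also known as Gadd34, was at 8.68 to 11.8 TPM after saline and 51.5 to 89.6 TPM after ConA. All these genes were read in the same 14 libraries, with saline and ConA mice far apart, and the likeness is a description.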

How the data were processed

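Liver total RNA of 14 mice was sequenced by the authors on a BGISEQ-500 with single 50-base reads, without a stated strand, and the deposited values are TPM per gene. The processing notes of the submitters name Bowtie2, RSEM 1.3.1 and GRCm38.p6, while the study's methods name STAR and HTSeq, and which of them made the TPM is not given in the sources used here. All tests took log2(TPM + 1) into limma 3.58.1 under R 4.3.3, with a mean-variance trend in eBayes, and this scale understates the change of low genes. A comparison used its own groups, and the comparison of changes used all 14 mice. Genes needed a TPM of at least 1 in as many libraries as the smaller group holds, and p-values were adjusted by the Benjamini-Hochberg method over all genes tested. Count tests were not used, since TPM keep no depth, and differ here from the study's edgeR. The fits were checked on simulated data. WT saline mice 2 and 3 may be technically related, so results against them were also computed with their mean. The mice are separate animals per the labels.

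Members and gene lists were chosen with earlier results of these data known. Named were the 10 members, Trp53, Ythdf1, up to 3 called genes per list with the largest change in WT mice, between genotypes after ConA and in the change itself, and 5 genes nearest to Cdkn1a and to Gadd45b. Other named genes (single neutrophil markers, and the p53 targets given for WT ConA mouse 4) were chosen after their values were seen. Of 50-base stretches of the members' transcripts, 99.7% to 100% were found in no other gene. Alternatives were another pseudocount (0.1), another filter (TPM of 5, or none), median-ratio scaling, all mice in one fit, robust eBayes, a replicate block, a log2 change of at least 1, mice left out, and a correction for GC content and length added after the data were seen. Promoters came from RefSeq on GRCm38.p6, and figures from matplotlib 3.10.9.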

Additional observations from a re-analysis of the deposited data

Results flagged for a closer look

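The change of Gadd45g after ConA was smaller in the mice labelled Ythdf1-/- than in WT mice, by -1.18 on the log2(TPM + 1) scale, and passed the test of the difference itself. For Rps27l this difference was -0.63, and for Atf3 it was 1.80, and both passed the same test. With WT saline mice 2 and 3 averaged the values were -1.11, -0.61 and 1.78, and none of the 3 passed the test (adjusted p = 0.116, 0.125 and 0.104).

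In 60 groups of 4 mice looked at for a single mouse far from the other 3, among the members, Trp53 and the genes named by list, 4 were found, and chance gives about 1 in 20. They were Ddit4 at 206 TPM in WT ConA mouse 4, Mapk13 at 2.31 TPM in WT ConA mouse 1, Kat5 at 18.6 TPM in Ythdf1-/- ConA mouse 1 and Nupr1 at 23.7 TPM in Ythdf1-/- ConA mouse 3. None was a member.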

How the results depend on the processing

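All 10 members were called after ConA in Ythdf1-/- mice under every alternative run. In WT mice 8 to 10 were called, with all directions kept: without a filter Ccng1 (adjusted p = 0.0678) and Phlda3 (adjusted p = 0.0770) were lost, and 9 to 10 were called when 1 mouse was left out, where Phlda3 fell below the filter without WT ConA mouse 1, 2 or 3. A call rule that also asked for a log2 change of at least 1 gave 2607 of 5704 genes in WT and 3453 of 7099 in Ythdf1-/- mice.

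Between the saline groups, where 1 member and 2009 genes were called, the counts depended on the setting. Members called were 2 with the GC and length correction (Gadd45g and Phlda3), 0 with WT saline mice 2 and 3 averaged, and 0 to 3 when 1 mouse was left out. Genes called were 584 without a filter, 332 with all 14 mice in the fit, 173 with a log2 change of at least 1, 49 with the averaged mice and 45 to 2739 with 1 mouse left out. Median-ratio scaling changed the share of calls that were higher from 32.8% to 49.1%. The Gdf15 difference ran from -0.21 to 0.0078 with 1 mouse left out.

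Between the ConA groups, where no member and 45 genes were called, members called were 3 with all 14 mice in the fit and 0 with the GC and length correction or 1 mouse left out. Genes called were 640 with all 14 mice, 709 with the correction, 25 with median-ratio scaling (48.0% of them higher, against 80.0%), 4 without a filter and 5 to 52 with 1 mouse left out. The Gadd45g difference was -0.057 with scaling, -0.0039 without both ConA mice numbered 3, and -0.13 to 0.18 with 1 mouse left out, and that of Phlda3 -0.22 to 1.11.

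In the difference of changes, where 1 member and 541 genes were called, members called were 0 without a filter, with scaling or with the averaged mice, 5 with the correction and 0 to 2 with 1 mouse left out. Genes called were 328 without a filter, 260 with a log2 change of at least 1, 28 with the averaged mice, 1591 without both ConA mice numbered 3, 2643 with the correction and 22 to 769 with 1 mouse left out. Scaling moved the median of all genes from 0.14 to 0.03. Cdkn1a turned to -0.15 with a pseudocount of 0.1, Phlda3 to -0.59 with it and to -0.048 with scaling. With 1 mouse left out Phlda3 ran from -0.83 to 0.51 and Ccng1 from -0.13 to 0.62. The GC and length correction takes spread within groups off at no cost in degrees of freedom, so its p-values are too small.

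The deviations of same-numbered mice correlated at 0.34, 0.23 and -0.00 between the saline groups. Between the ConA groups they correlated at -0.01, 0.13, 0.41 and 0.12. Mice with different numbers were not compared in this way, so whether replicate numbers pair the mice cannot be decided from these values. With the replicate number as a block, 2 members were called between the saline groups (Cdkn1a, 0.51, adjusted p = 0.0412), 1 between the ConA groups (Gdf15, 1.12, adjusted p = 0.0485, with 140 genes) and 1 in the difference of changes (358 genes). Depth is unknown, and TPM of low genes such as Phlda3 and saline Cdkn1a carry the most counting error. The cause of a changed count was not tested.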
